A study of Homo sapiens with 3 samples.

Results

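Cells high and negative for the immediate early genes FOS, EGR1 and JUN were compared within 1 library of H9, an established human embryonic stem cell line. Single cells were profiled by inDrop (TruDrop protocol), in which cells are captured in droplets with barcoded beads and transcripts are counted through molecular tags (UMIs). H9 was taken towards a neural progenitor state with the STEMdiff SMADi kit, which inhibits SMAD signalling, and mTeSR, a stem cell medium, with 1 library each for day 0, day 2 and day 6. Every library comes from the same line, and nothing in the labels tells how many cultures went into it or what the letters after the days mean. The cells compared here come from the library labelled day 2, whose cells are given as differentiated or neural progenitor; the library labelled day 0 is given as stem cells. Cells with 3000 to 15000 UMIs and 5 to 25% of UMIs from mitochondrially encoded genes were taken, which left 449 of 12323 barcodes. Of these, 75 cells had at least 5 summed FOS, EGR1 and JUN UMIs per 10000 and are called high, 164 had 0 and are called negative, and the other 210 lie between. The sides were chosen by the measured values of these 3 genes, which are therefore only described and were left out of every comparison.

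Immediate early genes are switched on within minutes of a signal without new protein synthesis. Growth factors act on them through ERK and the serum response factor SRF, which binds CArG boxes, and stress and calcium signals act through CREB and ATF proteins, which bind the cyclic AMP response element. Many of their products are transcription factors (FOS, FOSB, JUN and ATF3 of the AP-1 group, the EGR and KLF zinc fingers), while others end the response: phosphatases of ERK, proteins that bind AU-rich mRNA and speed its decay, and PPP1R15A, which restores translation after stress. In pluripotent cells in culture ERK is driven by FGF, and handling and dissociation are also known to induce these genes.

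Marker content went against the label in the library labelled day 0, while most cells of the library labelled day 2 held POU5F1. All 75 high cells had a POU5F1 UMI, as had 152 of 164 negative cells, and a PAX6 UMI, of the neural progenitor factor, was found in 0 high and 10 negative cells. In the library labelled day 0, by contrast, 922 of 933 cells within the same limits had no POU5F1 UMI and 596 had a PAX6 UMI. For day 6, by the label, 250 of 1010 cells had no POU5F1 UMI and 167 had a PAX6 UMI. The days are therefore used here only as names of libraries. Barcodes were shared between libraries (1545 to 2110 for each pair), but 0 of the 75 high and 3 of the 164 negative cells had a barcode that also lay within the limits in another library. Doublets were not removed.

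The 2 sides were close in median depth and mitochondrial share, but not in the lower tail of that share. Median UMIs per cell were 6072 in high and 5790 in negative cells, median mitochondrial shares were 14.2% and 13.9%, and median genes per cell at a common depth of 3000 UMIs were 1487 and 1457.5. The lower quartile of the mitochondrial share was 11.8% in high and 9.32% in negative cells, and 6 of 75 high against 35 of 164 negative cells had a share of 5 to 8%. The cells between the sides were deeper, with a median of 7635 UMIs. Summed over cells, the high side held 503088 UMIs and the negative side 1022193. Levels are UMIs per 1000000 summed UMIs of a side (CPM), and ratios are high over negative. With 1 library there is no replicate and no test, and all 95% intervals (exact Poisson for levels, exact conditional binomial for ratios, exact Clopper-Pearson for shares) cover counting error only.

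Promoters are printed for 4 genes that the results turn on. FOS and EGR1 are among the 3 genes that chose the cells. FOSB and PPP1R15A each had the highest ratio among the measured members of its own early gene list. Each run covers 250 bases before to 50 after the gene's start in GRCh38.p14 from RefSeq, 5′ to 3′ on the gene's strand: FOS at chr14:75278578-75278877, FOSB at chr19:45467746-45468045, EGR1 at chr5:138465229-138465528 and PPP1R15A at chr19:48872171-48872470, all on the plus strand. Capitals mark CArG boxes, the full cyclic AMP response element TGACGTCA and its first 5 letters TGACG, on either strand, so that CGTCA is TGACG on the other strand.
FOS: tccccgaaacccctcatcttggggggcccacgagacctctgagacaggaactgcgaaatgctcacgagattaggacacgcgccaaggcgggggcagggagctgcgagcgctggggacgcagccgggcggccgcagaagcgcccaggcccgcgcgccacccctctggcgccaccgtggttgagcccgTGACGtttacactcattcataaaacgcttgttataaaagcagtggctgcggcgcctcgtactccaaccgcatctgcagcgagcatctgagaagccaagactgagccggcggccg
FOSB: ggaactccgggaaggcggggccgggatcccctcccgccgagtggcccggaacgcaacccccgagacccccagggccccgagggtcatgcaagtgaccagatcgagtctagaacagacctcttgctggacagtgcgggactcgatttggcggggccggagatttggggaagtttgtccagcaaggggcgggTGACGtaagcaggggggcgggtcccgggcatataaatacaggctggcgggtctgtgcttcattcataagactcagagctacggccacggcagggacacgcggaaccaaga
EGR1: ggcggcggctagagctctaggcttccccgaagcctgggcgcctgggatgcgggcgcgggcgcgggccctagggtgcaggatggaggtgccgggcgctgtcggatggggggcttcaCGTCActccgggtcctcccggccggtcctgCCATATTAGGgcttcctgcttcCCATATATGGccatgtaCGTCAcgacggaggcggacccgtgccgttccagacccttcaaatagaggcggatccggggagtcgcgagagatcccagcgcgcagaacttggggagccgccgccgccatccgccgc
PPP1R15A: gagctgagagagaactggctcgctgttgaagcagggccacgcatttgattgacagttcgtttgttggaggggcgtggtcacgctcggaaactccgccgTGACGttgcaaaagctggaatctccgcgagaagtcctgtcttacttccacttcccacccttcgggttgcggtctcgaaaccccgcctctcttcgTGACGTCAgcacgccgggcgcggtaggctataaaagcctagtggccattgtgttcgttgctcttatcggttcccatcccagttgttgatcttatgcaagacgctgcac
EGR1 holds 2 CArG boxes, starting 105 and 83 bases before the start site, and 2 TGACG on the other strand. FOS and FOSB each hold 1 TGACG, 64 and 60 bases before the start. PPP1R15A holds the full element 58 bases before its start, which contains TGACG on both strands, and 1 further TGACG. Among all 35116 promoters of this length in the table, 1.29% hold a CArG box, 1.85% hold TGACGTCA, 24.6% hold TGACG and 7.71% hold TGANTCA, the AP-1 element with N for any base. Among the 7811 promoters of genes compared here the shares are 1.29%, 2.996%, 32.8% and 4.97%. For the 3 genes of the rule and the measured members of both early gene lists below, 46 promoters of 35 genes were in the table, some genes having several starts. Of these, 2 held a CArG box (EGR1 and 1 of the starts of SRF), 4 held TGACGTCA, 22 (47.8%) held TGACG and 1 held TGANTCA. For 12 of the 15 highest genes described further on, 21 promoters were in the table. Of these, 3 held TGACG (FOSB, KLF4 and SOS2) and 0 held any of the others. FOSB and KLF4 are also counted among the early genes. A match is a description of the letters, not a binding site, and elements outside the window are not seen.

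FOS (hg38 chr14:75278774-75282230) was the most abundant of the 3 genes in high cells, with 449 CPM from 226 UMIs in 65 cells. JUN (chr1:58780788-58784327) had 244 CPM from 123 UMIs in 55 cells, and EGR1 (chr5:138465490-138469315) had 153 CPM from 77 UMIs in 40 cells. All 3 were found together in 22 high cells, exactly 2 in 41 and exactly 1 in 12, numbers that the rule itself raises, since it asks for their summed UMIs. The summed value ran from 5.02 to 33.3 UMIs per 10000 with a median of 7.26, and the number of UMIs behind it from 2 to 18 with a median of 5. High cells are a range and not a separate class: 24 cells lay from 4 to under 5 per 10000 and 20 from 5 to under 6, with 4.995 the highest value just outside and 5.02 the lowest just inside. Over all cells within the limits FOS had 129.6 CPM for day 2, 32.2 for day 0 and 7.5 for day 6, by the labels. JUN had 82.4, 11.6 and 17.1 CPM and EGR1 40.4, 24.5 and 10.2, so the day 2 library was the highest for each gene, while the other libraries differed in order between JUN and the other genes. High cells made up 16.7% (75 of 449), 3.54% (33 of 933) and 0.891% (9 of 1010) of these cells.

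**Figure D1:**
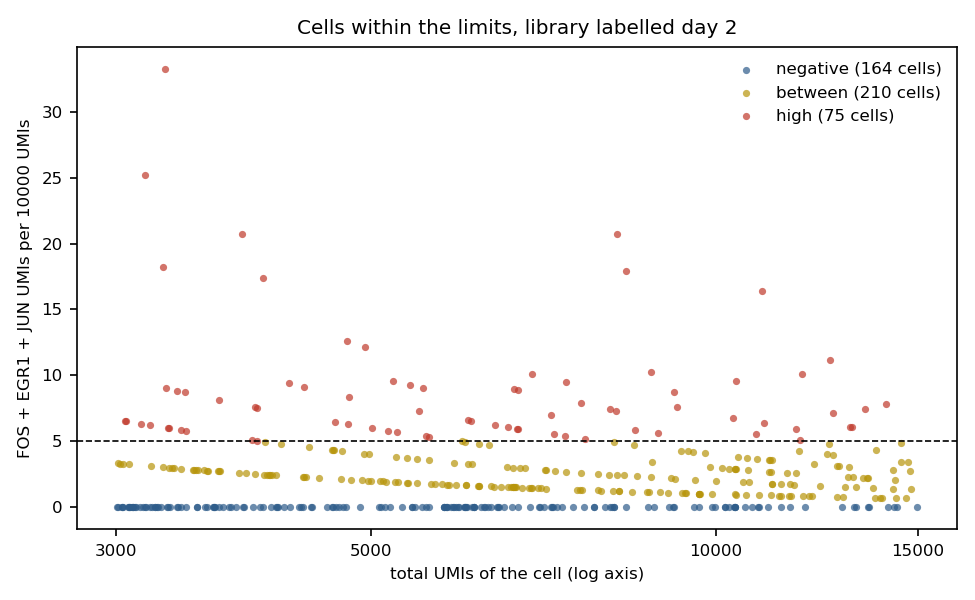
Summed FOS, EGR1 and JUN UMIs per 10000 (vertical axis) against the total UMIs of each of the 449 cells (horizontal log axis), with the limit of 5 dashed. High cells spread over the whole range of depth, and no gap separates them from the 210 cells between.

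Of 6630 genes with at least 20 CPM as the mean of both sides, 823 were at least 1.5-fold higher in high cells (12.4%) and 479 were at most 1/1.5 (7.22%). The median log2 ratio of all genes was 0.03. The share of all genes past the fold is the background for each list. A gene near 20 CPM rests on few UMIs, and with a minimum of 50 CPM 227 of 3115 genes (7.29%) were higher and 99 lower.

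Several immediate early transcription factors were higher in high cells. Of 15 measured members 6 were at least 1.5-fold higher and 0 lower, against the background of 12.4% and 7.22%, with a median log2 ratio of 0.51. The minimum acts on the mean of both sides, so 2 of the 6, FOSB and KLF4, passed it only through the high side, and this count and median do not stand for the 16 members left out. All 31 symbols summed to 1594 CPM in high, 1318 in between and 1172 in negative cells (ratio 1.36, 1.24 to 1.49). FOSB, the FOS paralog and AP-1 subunit (hg38 chr19:45467995-45475179), stood at 37.8 CPM (95% interval 22.7 to 59.0) in high, 23.3 in between and 3.91 (1.07 to 10.02) in negative cells, a ratio of 9.65 (3.21 to 39.0). It rested on 19 UMIs in 14 high cells and 4 UMIs in 4 negative cells. KLF6, a zinc finger factor (chr10:3775996-3785281), stood at 131 CPM in high, 82.8 in between and 40.1 in negative cells, with a ratio of 3.27 (2.18 to 4.95). Thinned to 3000 UMIs, 28.0% of high cells (18.2 to 39.6%) and 10.98% of negative cells (6.64 to 16.8%) held a KLF6 UMI, and unthinned the shares were 49.3% and 17.7%. KLF4, a zinc finger factor that also belongs to the reprogramming set, reached 59.6 CPM against 15.7 (ratio 3.81, 2.01 to 7.48). No share from cells known to lack KLF6 was available as a background.

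The remaining members differed less. ID1, an inhibitor of basic helix-loop-helix factors, stood at 163 CPM against 84.1 (ratio 1.94, 1.41 to 2.65), CEBPB at 49.7 against 28.4 (1.75, 0.984 to 3.10) and JUND at 129 against 85.1 (1.52, 1.08 to 2.12). IER2 (155 against 109 CPM, ratio 1.43, 1.05 to 1.92) and ATF3 (61.6 against 43.0, ratio 1.43, 0.874 to 2.32) stayed under the fold. SRF, MYC, MYCN, ID2, HES1 and IER5 had ratios from 0.968 to 1.21, each with an interval that held 1. ID3 went the other way from ID1, at 155 CPM in high and 228 in negative cells (ratio 0.68, 0.519 to 0.883). ID4, which had been placed in the list of nodal and BMP targets, stood at 41.7 against 11.7 CPM (ratio 3.56, 1.67 to 7.93), above 1 like ID1, while ID2 was at 1.11. ID4 passed the minimum only through the high side.

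The other 16 symbols of the list were under 20 CPM and are counted in neither direction. EGR2, a paralog of EGR1, had 8 UMIs in 7 high cells and 1 UMI in the negative cells, a ratio of 16.2 with a counting interval of 2.18 to 721. NR4A1, an orphan nuclear receptor of the early response, had 5 UMIs against 3, NR4A2 9 against 7 and JUNB 2 against 4. EGR3 had 3 UMIs and FOSL2 4 in high cells and 0 in negative cells, while EGR4 had 0 on both sides. At this depth a difference in most of these genes was not detectable.

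Several early response regulators and decay factors were higher too. Of 22 measured members 6 were at least 1.5-fold higher and 1 was lower, with a median log2 ratio of 0.31. PPP1R15A passed the minimum only through the high side, and 16 members were under it. All 38 symbols summed to 1914 CPM in high, 1736 in between and 1578 in negative cells (ratio 1.21, 1.12 to 1.31). PPP1R15A, a phosphatase subunit that reverses the translation block of the stress response, stood at 33.8 CPM in high, 17.5 in between and 10.8 in negative cells (ratio 3.14, 1.39 to 7.42), from 17 and 11 UMIs. TOB1, an antiproliferative partner of the mRNA deadenylase, stood at 101 against 42.1 CPM (2.41, 1.57 to 3.70), and BTG1 of the same family at 153 against 92.9 (1.65, 1.2 to 2.25). CITED2, a modulator of the coactivators CBP and p300, stood at 103 against 56.7 CPM (1.82, 1.23 to 2.70). SGK1 (1.94, 0.995 to 3.75) and the kinase PIM1 (1.60, 0.980 to 2.58) passed the fold with intervals that held 1. PMAIP1, a BH3-only apoptosis factor, was the most abundant measured member in high cells, at 278 against 211 CPM (1.32, 1.06 to 1.64).

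The mRNA decay factors ZFP36L1 (209 against 204 CPM) and ZFP36L2 (51.7 against 65.6) and the survival factor MCL1 (175 against 172) had intervals that held 1, as had CCNL1, SERTAD2, KLHL21, TRIB1, TOB2, NFKBIA, ERRFI1, GADD45A, PIM3, ODC1 and PHLDA1, with ratios from 0.746 to 1.48. TXNIP, which binds thioredoxin, was the lower member, at 35.8 against 53.8 CPM (ratio 0.665, 0.367 to 1.15). Among the 16 symbols under 20 CPM, ZFP36, which binds AU-rich mRNA, had 12 UMIs in high and 5 in negative cells (4.88, 1.60 to 17.7) and SERTAD1 12 against 7 (3.48, 1.26 to 10.4). DUSP1, an ERK and p38 phosphatase that is among the first genes of such responses, had 8 UMIs against 14 (15.9 and 13.7 CPM). BTG2 had 3 against 14, and the splicing kinase CLK1 had 5 against 29 (ratio 0.35, 0.11 to 0.92). These members under the minimum were singled out after their values were seen.

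**Figure D2:**
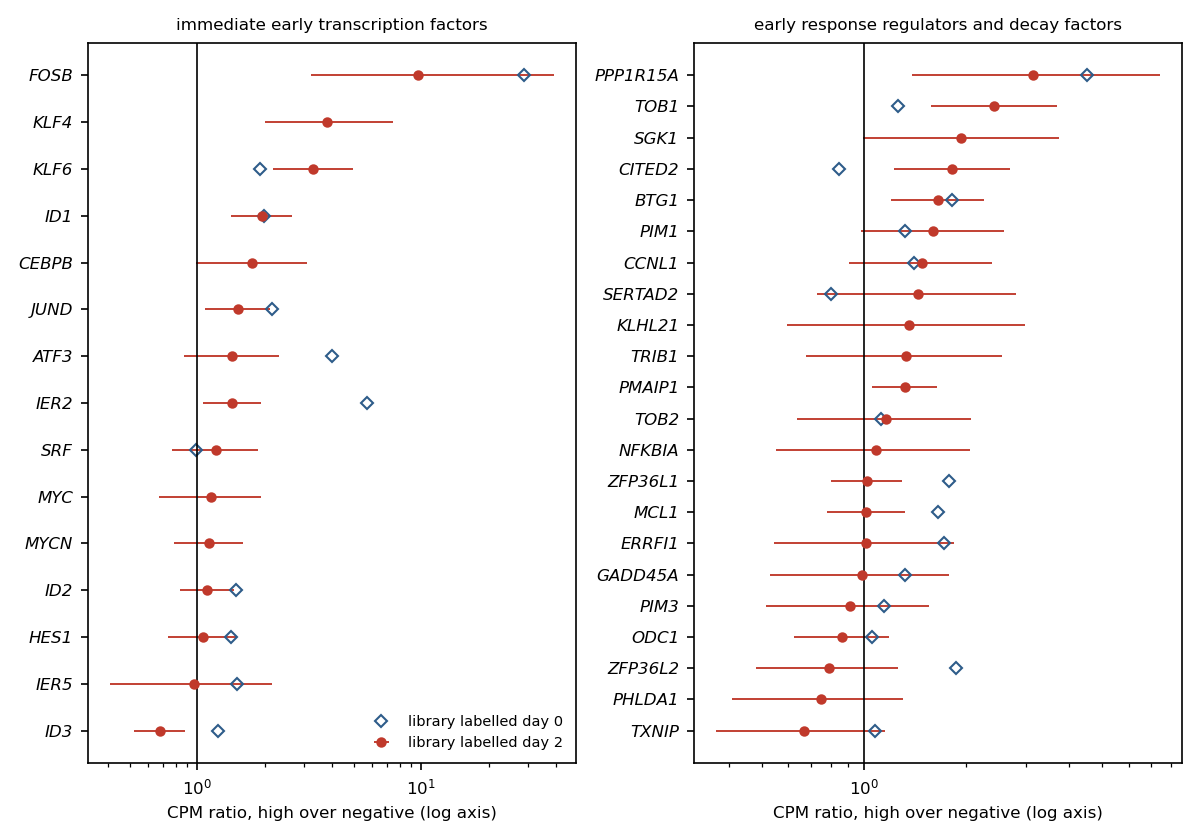
Ratio of CPM in high over negative cells (log axis) for the measured members of both early gene lists. Filled points with 95% counting intervals are the library labelled day 2, open diamonds the library labelled day 0 where the gene reached 20 CPM. FOSB leads in both, and DUSP1 is not plotted, being under 20 CPM for day 2.

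The median of the FGF and ERK feedback genes was near that of the early response regulators (0.27 against 0.31). Its direction changed when the sides were chosen by JUN alone. Of 13 measured members 4 were higher and 1 lower, against the background of 12.4% and 7.22%, with a median log2 ratio of 0.27. All 22 symbols summed to 1252 CPM in high, 1133 in between and 1066 in negative cells (ratio 1.17, 1.06 to 1.30). SPRY2 (1.67, 0.918 to 3.0), SPRED1 (1.59, 0.945 to 2.66) and SPRED2 (1.55, 0.694 to 3.40), which restrain RAS signalling, and FGF2, a ligand (157 against 101 CPM, 1.56, 1.15 to 2.11), were the 4. DUSP6, the cytosolic ERK phosphatase, stood at 111 CPM in high, 112 in between and 110 in negative cells (1.02, 0.724 to 1.41). SPRY4 and SPRY1 had ratios of 1.02, and the phosphatase DUSP4 and the ETS factors ETV1, ETV4 and ETV5 of 1.49, 0.86, 0.758 and 1.31, with intervals that held 1. The receptor FGFR1 stood at 507 against 421 CPM (1.2, 1.03 to 1.41), and IL17RD, a receptor that dampens FGF signals, was the lower member at 0.642 (0.305 to 1.254). SPRED2 passed the minimum only through the high side, and a further 9 symbols were under 20 CPM. The list median was 0.00 after thinning and −0.26 with sides chosen by JUN alone.

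Among SRF and YAP targets, the secreted matricellular genes CYR61 and CTGF were higher in high cells, while the actin gene ACTB had an interval that held 1. CYR61 stood at 147 CPM in high, 142 in between and 62.6 in negative cells (2.35, 1.66 to 3.34), and CTGF at 131, 87.5 and 58.7 (2.24, 1.55 to 3.23). LATS2, the Hippo kinase, was the other member past the fold (57.6 against 26.4 CPM, 2.18, 1.247 to 3.83). ACTB had 2948 against 3059 CPM (0.964, 0.905 to 1.03). Over all 17 measured members the count was 3 higher and 0 lower, near the background, with a median log2 ratio of 0.15 (−0.05 with sides chosen by JUN alone).

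Lists of other stress programs had medians between −0.21 and 0.06, lowest for p53 targets. In the heat shock and chaperone list 1 of 17 measured members was higher and 0 lower (median −0.09): HSPA1B, at 51.7 against 26.4 CPM (1.96, 1.10 to 3.48), whose reads may be shared with its near-identical copy HSPA1A (55.7 against 41.1 CPM). The list of ATF4 and unfolded protein response genes had 3 higher and 1 lower of 14 (median 0.04), with the cystine transporter SLC7A11 highest (71.6 against 35.2 CPM, 2.03, 1.24 to 3.32) and the glutathione-degrading enzyme CHAC1 lowest (45.7 against 72.4, 0.632, 0.377 to 1.02). For p53 targets the count was 0 higher and 1 lower of 5 (median −0.21), the lower one being the apoptosis factor BBC3 (23.9 against 46.0 CPM, 0.519, 0.25 to 0.993). All 14 p53 symbols summed to 370 CPM in high and 455 in negative cells (0.813, 0.682 to 0.965). In the hypoxia and glycolysis list 1 of 19 was higher, the peptide hormone ADM, at 141 against 70.4 CPM (2.00, 1.42 to 2.82), and 0 were lower. The 13 measured cholesterol synthesis genes had 0 higher and 1 lower (median 0.22).

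Pluripotency and cell cycle lists had few members past the fold. POU5F1 stood at 1022 CPM in high, 1091 in between and 1111 in negative cells (0.919, 0.827 to 1.02), SOX2 at 366 against 379 (0.966, 0.806 to 1.15) and NANOG at 63.6 against 51.9 (1.23, 0.765 to 1.94). Of 20 measured pluripotency genes 1, FOXD3, was past the fold (1.73, 0.850 to 3.47), with a list median of −0.02. FOXD3 passed the minimum only through the high side. The S phase list had 1 higher and 2 lower of 24 (median −0.06) and the list of G2 and mitosis genes 1 and 1 of 28 (median −0.02). Of the lower genes, 1 in each of these lists passed the minimum only through the negative side. Summed S phase levels were 2401 against 2510 CPM (ratio 0.957, 0.893 to 1.03) and summed G2 and mitosis levels 2922 against 3157 (0.926, 0.870 to 0.985).

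**Figure D3:**
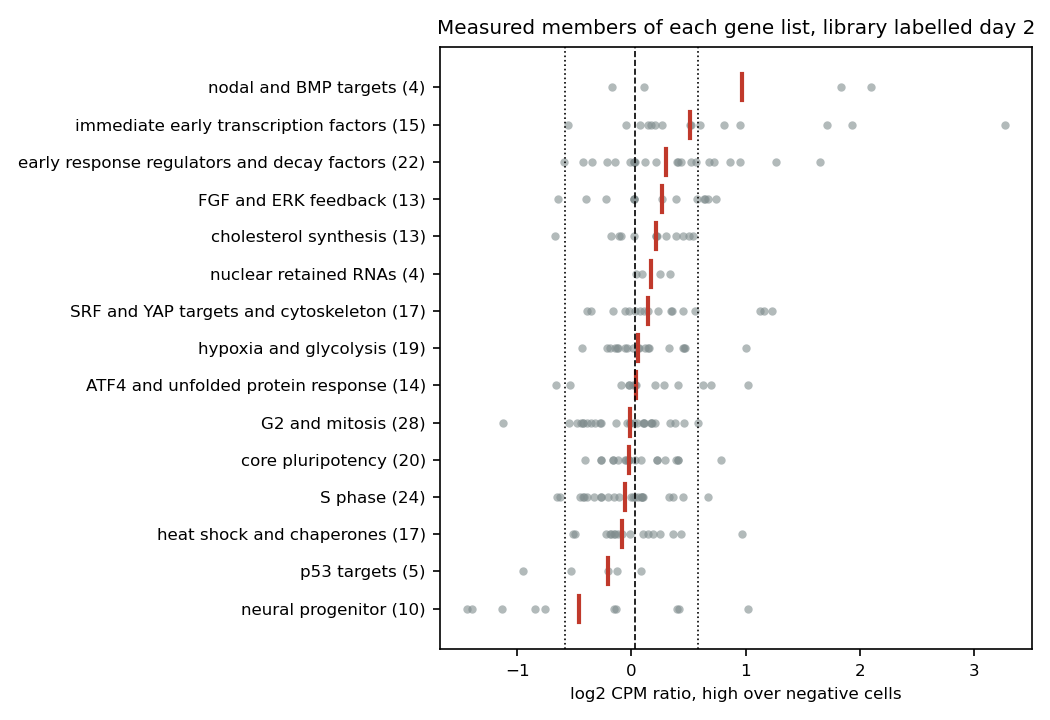
Log2 ratio of CPM in high over negative cells for every measured member (grey points) of the lists with at least 4 measured members, with list medians as red bars. The dashed line is the median of all 6630 genes, 0.03, and the dotted lines mark 1.5-fold; both early gene lists lie right of the dashed line and the neural list left of it.

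Several neural progenitor genes were lower in high cells. Of 10 measured members 5 were lower and 1 higher (median −0.46): FABP7, SIX3, the cadherin CDH2 (39.8 against 87.1 CPM), DLK1 and the intermediate filament NES (49.7 against 84.1). Of the 5 lower members 2 passed the minimum only through the negative side, and the higher member only through the high side. A further 14 symbols were under it, and the count and median do not stand for them. The summed list of 24 symbols stood at 610 CPM (544 to 682) in high, 882 in between and 950 (891 to 1012) in negative cells. Of the defining markers PAX6 was at 0 UMIs in high cells and at 22 UMIs in 10 negative cells, at least 3.61-fold lower with a floor of 3 UMIs on the high side. LIX1 was also at 0 in high cells, LHX2 had 3 UMIs against 28 and MEIS2 2 against 12. DLK1, an imprinted Notch-like ligand, stood at 187 against 336 CPM, but its 94 and 343 UMIs came from 12 and 22 cells. HES5, a Notch target, was the higher member (39.8 against 19.6 CPM), and 16 of its 20 UMIs in high cells came from 1 cell, without which its ratio was 0.413. When cells with a PAX6 UMI or without POU5F1 were left out, which kept 75 high and 144 negative cells, the list median became 0.38. When cells with at least 10 UMIs per 10000 of 8 neural markers were left out as well, which kept 70 and 143 cells, it was 0.20. The first step removed negative cells only, by neural markers, and a higher ratio of neural genes is built into that choice. The immediate early factors then stood at medians of 0.41 and 0.47, and the early response regulators at 0.22 and 0.23.

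The 15 lowest genes, ranked by the interval bound of the ratio nearest 1, included 4 that changed direction with those cells. FABP7, a fatty acid binding protein of radial glia, stood at 19.9 against 53.8 CPM, PTN, a heparin-binding growth factor, at 39.8 against 90.0 and PRSS23, a serine protease, at 11.9 against 41.1; with DLK1, these 4 had ratios of 1.12 to 7.35 once cells with PAX6 or without POU5F1 were left out. First by that rank was PKDCC, a secreted tyrosine kinase, with 11.9 CPM in high, 38.5 in between and 55.8 in negative cells (0.214, 0.0754 to 0.495), beside the imprinted gene NNAT at 29.8, 58.9 and 101 (0.296, 0.160 to 0.511) and the mannosyltransferase subunit DPM2 at 9.94, 45.5 and 44.0. TPBG, OCEL1, GEMIN2 of the SMN complex, the PARP1 cofactor HPF1, BRI3, CMTM7, the splicing regulator PTBP3 and ST6GALNAC5 completed the set, with ratios from 0.226 to 0.459. In PKDCC, NNAT and TPBG the cells between the sides stood at intermediate levels. PKDCC, DPM2, FABP7 and PRSS23 were under 20 CPM in high cells and passed the minimum only through the negative side. Unthinned, OCEL1 was found in 4% of high cells, and GEMIN2, HPF1, CMTM7 and ST6GALNAC5 in 8%, the share of PKDCC and PRSS23. TPBG and PTBP3 were found in 12%, the share of FABP7. The same limit may hold for all of these genes.

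Of the 15 highest genes by the same rank, 3 belong to the early lists (FOSB, KLF6 and KLF4). NPTX1, a secreted neuronal pentraxin, had 175 CPM in high, 128 in between and 39.1 in negative cells (4.47, 3.04 to 6.67), in 22 and 21 cells, with 17 of its 88 UMIs from 1 high cell. WNT2B, a WNT ligand, stood at 39.8 against 6.85 CPM (5.81, 2.36 to 16.2) and BAMBI, a decoy receptor for BMP and activin ligands, at 37.8 against 8.80 (4.29, 1.85 to 10.8). SOS2, which loads RAS with GTP, stood at 43.7 against 9.78 CPM (4.47, 2.03 to 10.6). ECT2L, NT5C2, TMEM64, PATJ, the nuclear receptor coactivator NCOA1, MGAT4C and 2 noncoding transcripts, among them LINC01619 (256 against 108 CPM), made up the rest, with ratios from 2.38 to 5.59. These ratios chose the genes and are a description. WNT2B, BAMBI and SOS2, like FOSB and KLF4, were under 20 CPM in negative cells and passed the minimum only through the high side. Unthinned, ECT2L was found in 4.27% of negative cells, NT5C2 in 8.54%, the other noncoding transcript in 9.15% and NCOA1 in 10.4%, beside 8.54% for KLF4. The same limit may hold for these genes. The strand setting of the counting is not given in the sources used here, so reads of genes overlapping on opposite strands cannot be told apart. LINC01619 (chr12:91984976-92142914) overlaps the early regulator BTG1 (chr12:92140278-92145897) on the same strand, where no strand setting would separate them. How reads in that overlap were counted is not known, so the ratios of LINC01619 and BTG1 may share reads.

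**Figure D4:**
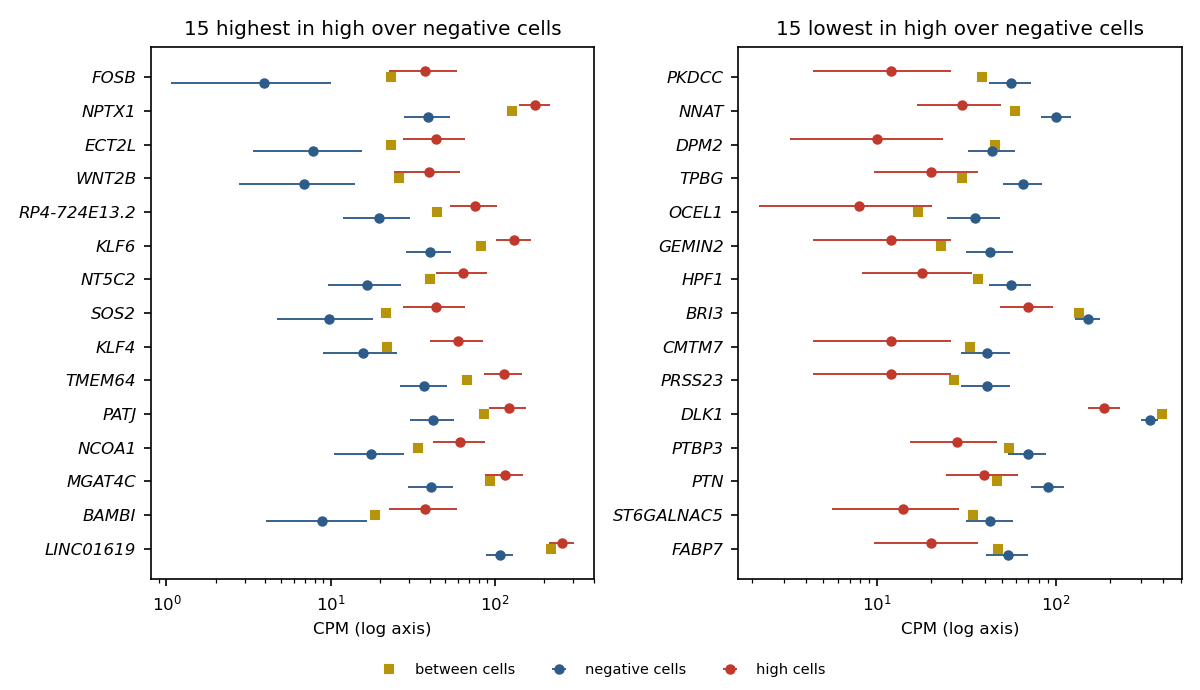
CPM (log axis) of the 15 highest and 15 lowest genes by the interval bound of the ratio nearest 1, in high (red), between (ochre squares) and negative cells (blue), with 95% Poisson intervals for high and negative cells. FOSB runs from 3.91 CPM in negative to 37.8 in high cells and PKDCC from 55.8 to 11.9, and for DPM2 and DLK1 the cells between lie above the negative cells.

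The same split of the library labelled day 0, whose cells did not enter the rule, gave 33 high and 733 negative cells with 245703 and 5893705 UMIs. High cells there were shallower, with a median of 5828 against 7443 UMIs. Of 6647 genes, 837 (12.6%) had a ratio of 1.5 or more and 652 (9.81%) a ratio of 1/1.5 or less. Both early lists were higher there as well: 6 of 11 measured immediate early factors were higher and 0 lower (median log2 ratio 0.94), and 10 of 20 early response regulators were higher and 0 lower (median 0.61). Sums over all symbols do not depend on the minimum. The 31 immediate early symbols summed to 1396 against 715 CPM (1.95, 1.74 to 2.18). The 38 regulator symbols summed to 2271 against 1510 CPM (1.504, 1.38 to 1.64). FOSB had 73.3 against 2.55 CPM (28.8, 13.7 to 61.4), IER2 195 against 34.3 (5.70, 4.07 to 7.84) and DUSP1 110 against 7.13 (15.4, 9.14 to 25.6), from 27 UMIs in 11 high cells. PPP1R15A had 69.2 against 15.3 CPM (4.53, 2.53 to 7.66), with 12 of its 17 UMIs in high cells from 1 cell. FOSB, DUSP1 and PPP1R15A were under 20 CPM in negative cells there and passed the minimum only through the high side. In these high cells 3 UMIs are 12.2 CPM. The counts and medians for day 0 therefore lean towards higher members and do not stand for members under the minimum. FOSB, KLF6, ID1 and JUND passed 1.5-fold in both libraries. Among the 11 factors compared in both, these are 4 of the 4 past it for day 2 (100%) and of the 6 for day 0 (66.7%). PPP1R15A and BTG1 did so among the 16 regulators compared in both, 40% of the 5 past it for day 2 and 33.3% of the 6 for day 0. CYR61 and CTGF were higher there too (2.69, 1.87 to 3.77, and 1.78, 1.26 to 2.46). ATF3 had a ratio of 3.998 for day 0 and 1.43 for day 2. The cholesterol synthesis list, with 0 of 13 higher for day 2, had 6 of 13 higher for day 0 (median 0.55). Differences between the libraries were not tested, since each day is 1 library.

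The 15 highest and 15 lowest genes did not keep their directions as sets in that library. Of the highest, 9 had a ratio above 1 in the library labelled day 0, beside 47.5% of all genes compared, and of the lowest 9 were also above 1. WNT2B stood at 24.4 against 18.5 CPM, SOS2 at 20.3 against 33.8 and NT5C2 at 40.7 against 40.6, while NPTX1 had 0 UMIs in high and 1 in negative cells. PKDCC stood at 52.9 against 30.2 CPM (1.75, 0.915 to 3.07). In the library labelled day 6 the 9 high cells held 48044 UMIs, where 3 UMIs are 62.4 CPM, and FOSB had 0 UMIs in high and 5 in negative cells, so no gene is described there.

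Gene span, which the rule did not use, moved with the ratio in the library labelled day 2. Span was taken from start to end of the gene in GENCODE v29 on hg38, which gave it for 96.0% of genes, and was looked at after the values were seen. Genes at least 1.5-fold higher in high cells had a median span of 84.1 kb, those at most 1/1.5 of 31.4 kb, and the rest of 38.8 kb. Over 5 classes of span with nearly equal gene numbers, the median log2 ratio was −0.05, −0.04, −0.02, 0.13 and 0.23 from the shortest to the longest. The share of genes at least 1.5-fold higher was 7.46% (95 of 1274) in the shortest class and 23.0% (293 of 1274) in the longest. Median levels of these classes were 56.6 and 47.6 CPM, and with a minimum of 50 CPM their median log2 ratios were −0.07 and 0.21. The immediate early factors were short and yet higher: 14 of the 15 measured members lie in the shortest class, with a median span of 5.61 kb. Of the 15 highest genes 14 had a span, with a median of 107 kb, and 5 lie in the longest class and 5 in the shortest. In the library labelled day 0 the medians of the same classes were 0.03, 0.07, 0.06, 0.02 and 0.00. The cells between the sides, set against the same negative cells, had a median of −0.08 in the shortest and 0.18 in the longest class, and the high cells had −0.05 and 0.23; the negative cells are shared by these contrasts. Summed cytosolic ribosomal protein genes stood at 152975 CPM in high and 162876 in negative cells (0.939, 0.931 to 0.947), and proteasome subunits at 4222 against 4808 (0.878, 0.834 to 0.924). Nuclear retained RNAs, a list that also holds snoRNA host genes, summed to 2383 CPM in high, 2144 in between and 2155 in negative cells (1.11, 1.03 to 1.19), with MALAT1 at 1153 against 1084 CPM (1.06, 0.96 to 1.18) and SNHG14, a long transcript, at 620 against 522 (1.19, 1.03 to 1.37). For day 0 that sum was 6675 against 4717 CPM (1.42, 1.35 to 1.49). What part these RNAs and families have in the shift was not tested.

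**Figure D5:**
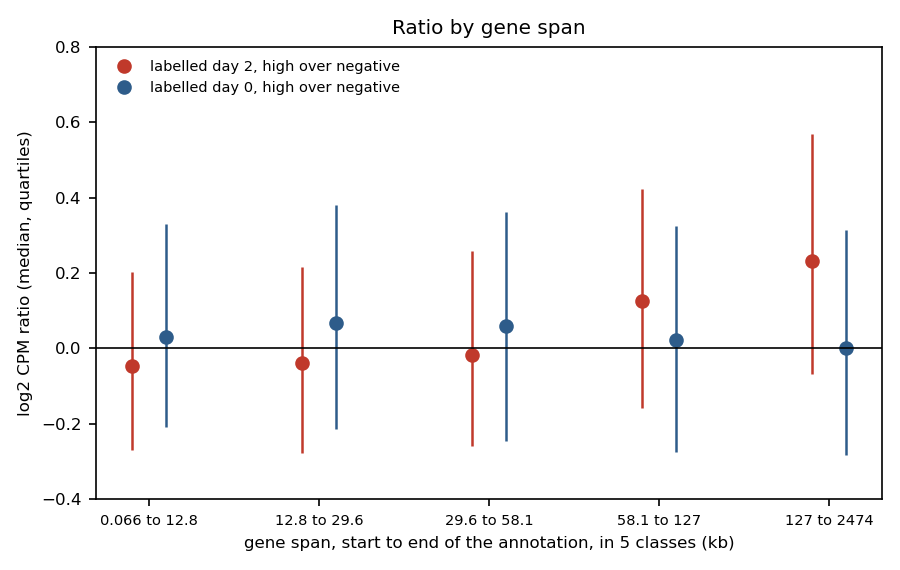
Median log2 ratio of CPM in high over negative cells, with quartiles as bars, for 5 classes of gene span in kb, in the libraries labelled day 2 (red) and day 0 (blue). The longest class lies at 0.23 in the library labelled day 2 and at 0.00 in that labelled day 0.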

How the data were processed

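Gene-by-barcode counts, whole numbers, were deposited for each of the 3 libraries and used here as UMI counts, although no source states that duplicate reads were collapsed. The submitters' processing notes name STAR and the build hg38. Which annotation, barcode filter and strand setting were used is not given in the sources used here. Doublets were neither called nor removed.

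UMIs were summed over the cells of a side, and genes with at least 20 CPM as the mean of both sides were compared with python 3.11.15, numpy 2.4.6 and scipy 1.17.1. A gene was counted as higher at a ratio of at least 1.5 and as lower at most 1/1.5. A ratio against 0 UMIs uses a floor of 3 UMIs over the side, and no ratio is given where both sides are at or under it. Ratios and intervals were tried on simulated Poisson counts. These hold no spread between cells, so the simulation does not bear on sums led by 1 cell. Named genes are the 15 highest and 15 lowest by the interval bound nearest 1, all measured members of both early lists and of the FGF and ERK list, the 2 highest and 2 lowest of each other list, and POU5F1, PAX6, NANOG and SOX2; other list members are named where a sentence needs them. The members, lists and rules were chosen with earlier results of these data known. Shares of cells were taken after thinning each cell to 3000 UMIs, which left out no cell. Gene span and 2 further alternatives (leaving out cells by neural markers, and leaving out the cell with most UMIs of a gene) were added after seeing the data. Alternatives were other limits, depth and mitochondrial strata, other scalings and single-gene sides. Cells are not replicates, so no p-value is given. The lists of mesoderm and endoderm genes (4 and 9 summed UMIs in high and negative cells), genes of other tissues (23 and 36 UMIs, mostly COL1A1) and nodal and BMP targets (0.97 over 4) were too thin to describe further.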

Additional observations from a re-analysis of the deposited data

How the results depend on the processing

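No paired analysis was possible because each day is a single library, and with no replicate none could be left out. The 823 higher and 479 lower genes became 2176 and 970 with high cells at 10 or more per 10000, 1588 and 731 with sides chosen by FOS alone, 2275 and 999 by EGR1 alone (8 high cells), 2326 and 1226 by JUN alone (9 high cells), 1355 and 837 at a mitochondrial share of 5 to 15%, 227 and 99 with a minimum of 50 CPM, 211 and 109 at a fold of 2, and 1788 and 1190 at the smallest fold tried. Lower genes were 308 with high cells at 3 or more per 10000 and 724 after thinning. The median log2 ratio of the immediate early factors stayed between 0.27 and 0.89 over the settings run, and that of the early response regulators between 0.18 and 0.63. That of the FGF and ERK list ran from −0.26 (JUN alone) to 0.61, and that of SRF and YAP targets from −0.05 (JUN alone) to 0.61. Of 2006 gene ratios under other settings, 1777 stayed near the reported value, 193 moved and 36 reversed. The 36 do not hold every ratio that crossed 1. Among ratios whose reported interval held 1, CEBPB fell to 0.655 in at least 1 setting, SPRY2 to 0.680, SPRED1 to 0.581 and SPRED2 to 0.782. IL17RD rose to 1.70.

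By EGR1 alone the ratios that reversed were NPTX1 0.891, a noncoding transcript 0.635, NT5C2 0.655, NCOA1 0.867, MGAT4C 0.645, LINC01619 0.396, OCEL1 2.17, CMTM7 1.41, DLK1 4.91, PTN 1.23, CITED2 0.326, BTG1 0.659, CYR61 0.426 and ADM 0.833. By JUN alone they were MGAT4C 0.764, GEMIN2 1.27, ST6GALNAC5 1.15, CYR61 0.961, CTGF 0.617 and FGF2 0.983, and by FOS alone CITED2 0.888. After thinning PRSS23 was 1.02, DLK1 1.07 and SIX3 1.14, and at 10 or more per 10000 DLK1 was 1.69, PTN 1.05 and SIX3 1.34. Without cells with PAX6 or lacking POU5F1, PRSS23 was 1.54, DLK1 7.35, PTN 1.28, FABP7 1.12 and SIX3 5.40, and with cells rich in neural markers left out as well PRSS23 was 1.35, DLK1 2.36 and FABP7 1.06. HES5 was 0.413 without its 1 leading cell. The neural list median became 0.24 at 10 or more per 10000, 0.93 by EGR1 alone, 0.38 without cells with PAX6 or lacking POU5F1 and 0.20 with cells rich in neural markers left out as well. That of nodal and BMP targets became −0.015 by EGR1 alone and −0.054 at no more than 10000 UMIs per cell. The single-gene sides hold few cells; beyond that the cause was not tested. The longest span class lay above the shortest by 0.28, by 0.21 within strata of mitochondrial share, by 0.49 at 10 or more per 10000 and by 0.03 by EGR1 alone.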
